A study of Drosophila melanogaster with 8 samples.

Results

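The calcium cycling genes of the myocyte were examined in the dorsal vessel, the tubular circulatory organ of the larva of the fruit fly Drosophila melanogaster. The set comprised 10 of the 13367 genes on a whole-genome oligonucleotide array, matched by symbol or gene identifier: RyR (Rya-r44F in the files), Itpr (Itp-r83A), SERCA (Ca-P60A), Calx, PMCA, Ca-alpha1D, cac, Ca-alpha1T, Ca-beta and Cam. They were represented by 13 of the 14438 gene oligonucleotides, 11 of which carried one of these names. The other 2 were reached through older locus tags: PMCA is listed as CG2165, and an oligonucleotide listed as CG33305 is assigned to Ca-beta in the current RefSeq annotation. Ca-beta had 3 oligonucleotides and SERCA had 2, and the rest had 1 each. Oligonucleotides of 1 gene share their target and are not replicates of each other.

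In muscle cells, voltage-gated channels of the surface membrane admit calcium, the ryanodine receptor and the IP3 receptor release it from the endoplasmic or sarcoplasmic reticulum, and the SERCA pump returns it to the store. A sodium/calcium exchanger and a plasma membrane pump carry the ion out of the cell, and calmodulin reports its level to enzymes and channels. The heartbeat of the larva arises in the muscle of the vessel itself, and its rhythm depends on this cycle.

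RNA abundance was measured on 8 arrays that each held 2 RNAs labelled with Cy3 and Cy5. On 4 arrays the heart, the posterior part of the vessel, was compared with the aorta, the anterior part, after the vessel had been cut at the cardiovascular valve. On the other 4 the entire vessel was set against whole larvae that were its siblings. All larvae were wild type (yw; Canton S by the labels), at the third instar (L3), and grown at 25 °C, with no transgene or treatment in any group. Each RNA came from a pool, of 10 hearts or aortae or of 5 vessels or larvae, and each comparison had 4 biological replicates. In replicates 1 and 2 aorta or vessel carried Cy3, and in replicates 3 and 4 the dyes were exchanged. The RNA of every pool was amplified over 2 rounds before labelling. The whole larva includes body wall muscle, brain and viscera, so that comparison sets the vessel against all tissues together. In pooled tissue, fewer cells of a type and less RNA per cell cannot be told apart.

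Signals were low across the series. The median gene spot lay at 1.21 to 2.47 relative fluorescence units (RFU) per channel over a local background of 0.949 to 2.08 RFU. A spot counted as detected above the 95th percentile of the negative and empty spots of its channel, which lay at 1.34 to 3.80 RFU, and 28.0 to 52.2% of gene oligonucleotides exceeded it. The log2 ratios of vessel over larva correlated at r = 0.791 to 0.891 between arrays. Those of heart over aorta correlated at 0.499 and 0.481 between arrays of the same dye orientation but at -0.457 to 0.173 between arrays of opposite orientation; the labels state the dyes, so the direction was kept. A block of 656 spots that held no oligonucleotide of these genes followed the other arrays poorly on 3 arrays (r = -0.0265 to 0.173).

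Transcripts of 5 of the 10 genes were detected: RyR, SERCA, Calx, Ca-alpha1D and Cam. The oligonucleotides of RyR, Calx, Ca-alpha1D and Cam exceeded the detection level in 16 of 16 channels. SERCA did so in 16 channels with one oligonucleotide and in 14 with the other. The remaining 7 oligonucleotides, of 5 genes, were detected in 1 channel at most and were not tested in either comparison. An oligonucleotide was tested where it was detected on at least 2 of 4 arrays in at least 1 of the RNAs compared.

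**Figure D1:**
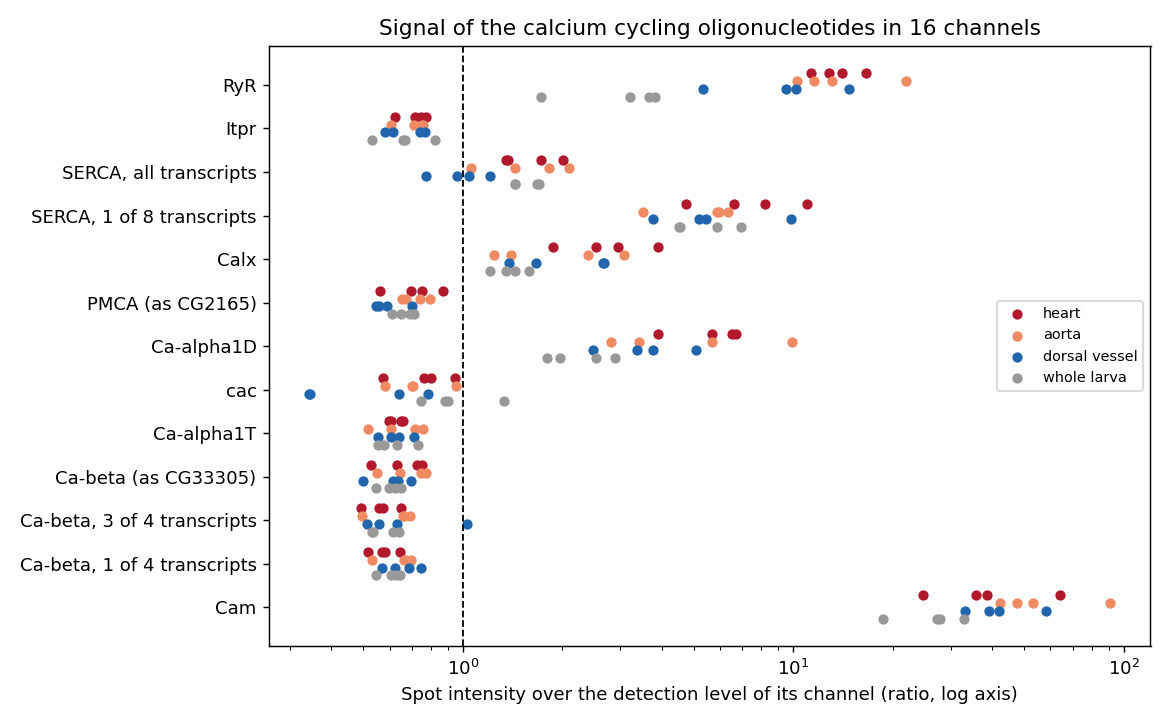
Foreground intensity of each of the 13 oligonucleotides divided by the detection level of the same channel (log axis, dashed line at 1), with 1 point per channel and 4 channels for each RNA. The 7 oligonucleotides of Itpr, PMCA, cac, Ca-alpha1T and Ca-beta lay at or below the line except for 1 larva channel of cac and 1 vessel channel of Ca-beta, whereas RyR lay between 1.72 and 21.9 times its detection level; intensities of different oligonucleotides are not comparable with each other.

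Calcium release was represented by RyR and Itpr. RyR, the ryanodine receptor, was the one gene of the set that passed the test between vessel and larva. Its oligonucleotide (1000038605, CG10844) matches all 4 transcripts listed for the gene. The foreground intensity was 19.0, 31.1, 30.8 and 15.1 RFU in the vessel of replicates 1 to 4. In the whole larva of the same arrays it was 5.63, 8.92, 9.40 and 9.85 RFU. Every vessel value lay above every larva value. The normalised log2 ratios were 1.06, 1.48, 1.17 and 1.16, so RyR RNA was higher in the vessel on 4 of 4 arrays and under both dye orientations. The fitted log2 ratio was 1.22 (SE 0.18), a 2.33-fold difference with a 95% confidence interval of 1.73 to 3.13, and the adjusted p from limma was 0.00324. RyR was the only one of the 6 tested oligonucleotides past the threshold of 0.05 in this comparison, where 18.3% of all 6784 tested oligonucleotides were called higher and 42.1% were called in either direction. With the 4 arrays of this comparison fitted alone, limma gave an adjusted p of 0.00137, beside 40.9% called in either direction. RyR kept its call under 16 of 16 alternative settings, with log2 ratios from 0.38 to 1.36 and a largest adjusted p of 0.0275.

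Between heart and aorta no difference in RyR was detected. The heart showed 20.2, 40.0, 38.6 and 43.0 RFU, and the aorta 23.4, 26.5, 29.2 and 31.8 RFU. The ranges overlapped. The log2 ratios were -0.63, 0.41, 0.14 and 0.00084, with a fitted value of -0.02 (SE 0.17, limma adjusted p = 0.963) and a 95% interval from 1.36-fold lower to 1.32-fold higher in the heart. The ratio was negative in replicate 1 and positive in the other 3, and its sign turned under 4 settings given in the closing section.

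Itpr, the IP3 receptor, was detected in 0 of 16 channels (oligonucleotide 1000034351). Its intensity ranged from 1.01 to 2.37 RFU and reached at most 0.823 of the detection level of its channel. Its RNA was thus not detectable at this signal, and no ratio is given.

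Calcium removal was represented by SERCA, Calx and PMCA. No difference in SERCA, the pump that refills the store, passed the test in either comparison. Its 2 oligonucleotides match different numbers of its 8 listed transcripts. Oligonucleotide 1000041900 matches all 8 listed transcripts. In the vessel it gave 2.76, 2.92, 2.51 and 1.66 RFU, above detection on 2 of 4 arrays, and in the larva 4.71, 4.09, 4.98 and 3.72 RFU. Every vessel value lay below every larva value before normalisation, but replicate 4 had a log2 ratio near 0. The log2 ratios were -0.43, -0.44, -0.71 and 0.04, and the fitted ratio of -0.39 (SE 0.16) had an adjusted p of 0.0929 in limma. This value passed the threshold under 2 alternatives: -0.75 without background subtraction (limma adjusted p = 0.0302) and -0.63 from the authors' deposited table (limma adjusted p = 0.0432).

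In the heart the same SERCA oligonucleotide gave 2.13, 4.86, 4.76 and 5.20 RFU, and in the aorta 2.15, 3.72, 2.44 and 5.08 RFU. The groups overlapped. The fitted log2 ratio was 0.02 (SE 0.16, limma adjusted p = 0.955), with a 95% interval from 1.28-fold lower to 1.32-fold higher in the heart.

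The other SERCA oligonucleotide, 1000040008, matches 1 of the 8 transcripts. It gave 18.5, 16.6, 20.5 and 5.99 RFU in the vessel and 14.8, 14.4, 13.3 and 17.9 RFU in the larva. Vessel exceeded larva in replicates 1 to 3 and fell below it in replicate 4, and the log2 ratios were 0.05, 0.04, 0.24 and -0.78. The fitted value of -0.11 (SE 0.20) had a limma adjusted p of 0.658. In the heart this oligonucleotide gave 17.3, 19.8, 18.2 and 18.0 RFU and in the aorta 7.10, 15.2, 8.48 and 14.5 RFU. Every heart value lay above every aorta value before normalisation. After it the log2 ratios were 0.70, 0.25, 0.67 and -0.07, and the fitted value of 0.39 (SE 0.20, limma adjusted p = 0.287) did not pass. On the same heart and aorta arrays its log2 ratio exceeded that of the common oligonucleotide on 4 of 4 arrays, by 0.36 ± 0.37 (SD, n = 4; exact two-sided sign-flip test p = 0.125, the smallest that 4 arrays allow, adjusted 0.5 over 6 pairs). In vessel over larva it did so on 3 of 4 arrays, by 0.27 ± 0.76 (SD, n = 4; exact p = 0.5).

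Calx is the sodium/calcium exchanger, which exports calcium. Its oligonucleotide (1000032834, all 3 transcripts) gave 5.90, 8.07, 5.57 and 2.19 RFU in the vessel and 4.43, 3.51, 4.64 and 3.12 RFU in the larva. The groups overlapped because of replicate 4, yet each normalised log2 ratio was positive: 0.19, 0.89, 0.07 and 0.42. The fitted ratio of 0.39 (SE 0.14, 1.31-fold, 95% interval 1.04 to 1.66) had an unadjusted p of 0.0302 and a limma adjusted p of 0.0644. Without replicate 1 it was 0.57 with a limma adjusted p of 0.0371. Among all 6784 oligonucleotides tested in vessel over larva, 3679 had an unadjusted p below 0.05. In the heart Calx gave 6.14, 7.14, 6.97 and 7.15 RFU and in the aorta 2.52, 3.61, 4.10 and 5.78 RFU. All heart values exceeded all aorta values before normalisation. The log2 ratios were 0.58, 0.65, 0.23 and -0.05, and the fitted ratio of 0.35 (SE 0.14, 1.28-fold) had an unadjusted p of 0.0414 and a limma adjusted p of 0.170. Calx was the 1 tested oligonucleotide of the set with an unadjusted p below 0.05 between heart and aorta.

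PMCA, the plasma membrane calcium pump, was detected in 0 of 16 channels (oligonucleotide 1000038842). Its intensities lay between 0.884 and 2.33 RFU and reached at most 0.871 of the detection level.

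Calcium entry was represented by the pore-forming subunits Ca-alpha1D, cac and Ca-alpha1T and by the auxiliary subunit Ca-beta. Ca-alpha1D, the L-type channel subunit that carries calcium current in larval body wall muscle, was the 1 channel gene detected in more than a single channel of the arrays. Its oligonucleotide (1000035772, all 4 transcripts) gave 11.95, 11.4, 10.6 and 3.93 RFU in the vessel. The larva gave 6.47, 6.19, 5.26 and 7.45 RFU. In replicates 1 to 3 the vessel lay above every larva value, whereas in replicate 4 it lay below all of them. The log2 ratios of 0.54, 0.60, 0.57 and -0.04 gave a fitted value of 0.42 (SE 0.16, 1.34-fold, 95% interval 1.02 to 1.75), with an unadjusted p of 0.0389 and a limma adjusted p of 0.0772. An unadjusted p below 0.05 was common in this comparison, reached by 3679 of all 6784 tested oligonucleotides.

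In the heart Ca-alpha1D gave 10.6, 15.8, 15.6 and 14.8 RFU and in the aorta 6.92, 7.23, 13.2 and 13.8 RFU. The ranges overlapped. The log2 ratios of 0.09, 0.84, -0.01 and -0.24 rested on replicate 2, and the fitted ratio of 0.17 (SE 0.16) had a limma adjusted p of 0.553.

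The remaining entry genes gave signals at the level of empty spots. cac, the subunit of the presynaptic calcium channel, was detected on 1 larva array, in replicate 1, at 4.36 RFU over a detection level of 3.28 RFU, and in no vessel, heart or aorta channel. Ca-alpha1T, the T-type subunit, was detected in 0 of 16 channels, at 0.963 to 2.31 RFU. Of the 3 Ca-beta oligonucleotides, 1000039677 and 1000039207 were detected in 0 channels. Oligonucleotide 1000039676 was detected in 1 vessel channel, in replicate 2, at 3.13 RFU over a detection level of 3.04 RFU, with a local background of 4.48 RFU that was higher than the spot itself. The RNA of these 3 genes was therefore not measurable here, which does not show that it was absent.

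Cam encodes calmodulin, the calcium sensor of the cell. Its oligonucleotide (1000040204, both transcripts) gave 118, 127, 81.7 and 92.4 RFU in the vessel and 89.2, 80.1, 81.3 and 48.3 RFU in the larva. The groups overlapped. The log2 ratios of -0.12, 0.35, -0.71 and 1.18 had no common sign, and the fitted value of 0.17 (SE 0.30) had a limma adjusted p of 0.638. Single arrays decided this value: it was 0.64 without replicate 3 (limma adjusted p = 0.0442) and -0.30 without replicate 4, and it was 0.57 with median centring in place of loess (limma adjusted p = 0.0473).

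In the heart Cam gave 101, 86.4, 106 and 93.9 RFU and in the aorta 96.3, 109, 122 and 128 RFU. The ranges overlapped, but the normalised log2 ratio was negative on 4 of 4 arrays, at -0.31, -0.63, -0.39 and -0.93. The fitted value of -0.57 (SE 0.29) corresponded to a 1.48-fold lower level in the heart, with a 95% interval from 2.42-fold lower to 1.10-fold higher and a limma adjusted p of 0.286.

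**Figure D2:**
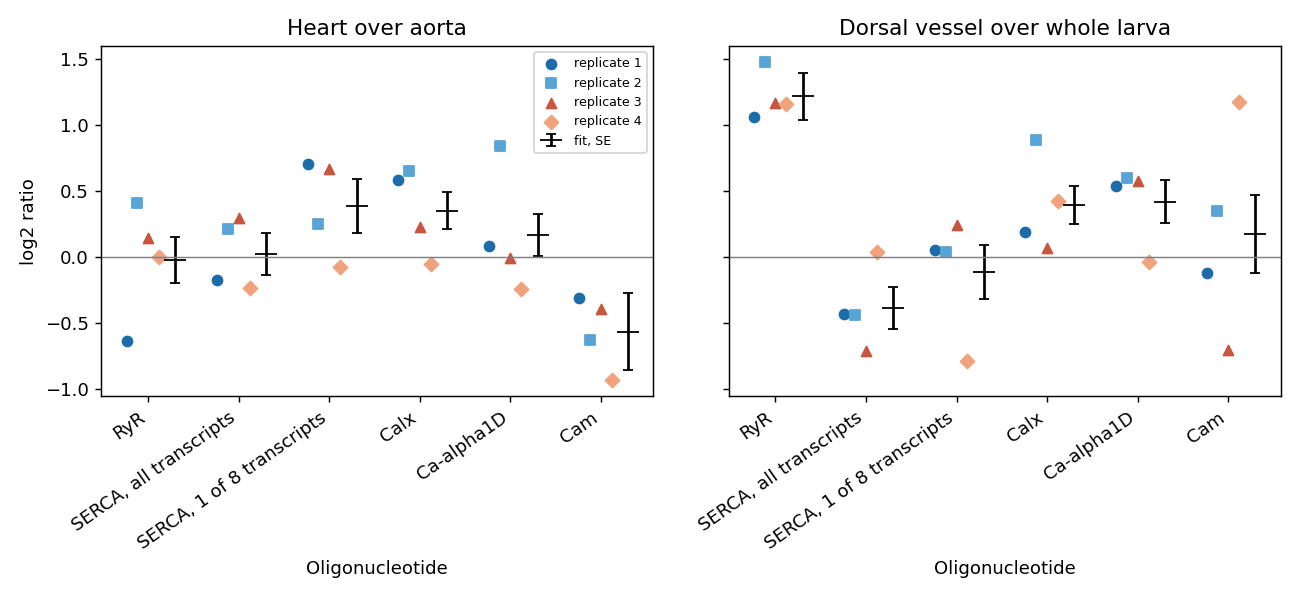
Log2 ratios of the 6 tested oligonucleotides on each array (points, 4 replicates, blue with aorta or vessel in Cy3 and red with the dyes exchanged) and the fitted value with its SE (black), for heart over aorta at the left and dorsal vessel over whole larva at the right. RyR lay at 1.06 to 1.48 in vessel over larva, and every other oligonucleotide in that panel except Calx had ratios on both sides of 0.

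Between heart and aorta 0 of the 6 tested oligonucleotides passed in limma, where 8.43% of 5910 tested oligonucleotides were called, 4.13% higher and 4.30% lower in the heart. With the 4 arrays of that comparison fitted alone, 0.135% were called, and limma again called 0 of the 6. At an unadjusted p below 0.05 it was 1, Calx, in the fit on 8 arrays, beside 1559 of all 5910 tested. The median log2 ratio of the 6 was 0.10, beside -0.01 over all tested oligonucleotides. In vessel over larva 1 was higher, 0 were lower and 5 did not pass, with a median of 0.28 beside -0.05 over all tested. At an unadjusted p below 0.05 it was 3 of the 6, RyR, Calx and Ca-alpha1D, beside 3679 of all 6784 tested.

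The RyR ratio was also set against the others array by array, a comparison chosen after the values were seen, over 6 pairs of oligonucleotides. In vessel over larva the log2 ratio of RyR exceeded that of the common SERCA oligonucleotide by 1.49, 1.92, 1.88 and 1.13. The mean excess was 1.60 ± 0.37 (SD, n = 4; exact two-sided sign-flip p = 0.125, adjusted 0.188). It exceeded the ratio of SERCA oligonucleotide 1000040008 by 1.33 ± 0.47, that of Calx by 0.83 ± 0.22 and that of Ca-alpha1D by 0.80 ± 0.31 (SD, n = 4 each), also on 4 of 4 arrays with an exact p of 0.125. Against Cam the excess was 1.04 ± 0.78 and held on 3 of 4 arrays (exact p = 0.25). No such pair could reach 0.05 with 4 arrays. Between heart and aorta the difference of RyR from the common SERCA oligonucleotide was -0.04 ± 0.33 (SD, n = 4), with both signs on 2 arrays each.

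Whole larvae also contain the body wall muscle, and the general muscle genes are given beside these results. Of 18 oligonucleotides of 13 muscle genes, 16 were tested in vessel over larva, with a median log2 ratio of -0.32. Of these, 3 were higher, 7 lower and 6 not past the test, beside 18.3% higher and 23.8% lower among all tested. The counts of 3 and 7 were the same in the fit on 4 arrays alone. Of the 3 higher, TpnC47D was detected on 1 larva array and Zasp66 oligonucleotide 1000037275 on 0, so both were tested only through the vessel. Mhc, the muscle myosin heavy chain, was 3.52-fold lower in the vessel (log2 -1.81, limma adjusted p = 0.00647), and Act57B, a muscle actin, was 4.03-fold lower (log2 -2.01, limma adjusted p = 0.00392). The summed signal of the list was 1191 to 2208 RFU in the vessel and 2456 to 3046 RFU in the larva. The RyR log2 ratio was exceeded by that of 2, 2, 1 and 3 of the 16 muscle oligonucleotides in replicates 1 to 4, and in the fit by 1 oligonucleotide of Mf (1.52) and 1 of Zasp66 (1.67, detected on 0 larva arrays). The other tested oligonucleotides of these 2 genes lay at -1.08 to 0.10. The lowest was Zasp66 oligonucleotide 1000040872, with -0.34, -0.25, -1.82 and -1.91 in replicates 1 to 4. It was 1 of the 7 called lower. Its spot lies in the block of 656 spots that followed the other arrays poorly, here in replicates 1 and 2. The part of the muscle content of the larva in the RyR ratio was not tested.

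**Figure D3:**
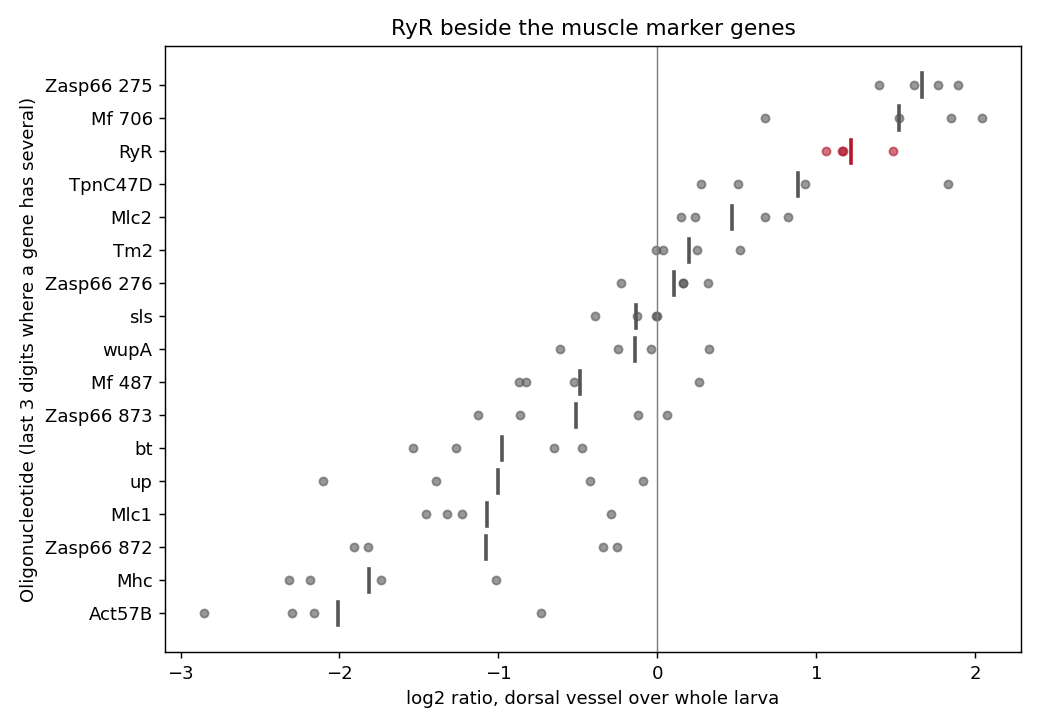
Log2 ratio of dorsal vessel over whole larva for RyR (red) and the 16 tested oligonucleotides of muscle marker genes (grey), 1 point per array and a bar at the fitted value. RyR, fitted at 1.22, lay above all of them except an oligonucleotide of Mf (1.52) and one of Zasp66 (1.67), while Mhc and Act57B lay at -1.81 and -2.01.

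RyR, Ca-alpha1D and cac are also used by neurons. Of 19 oligonucleotides of 14 neuronal genes, 6 were tested in vessel over larva. In limma 0 of these were higher and 5 were lower in the vessel (3 with the 4 arrays fitted alone), beside 23.8% lower among all tested. The median log2 ratio of the 6 was -0.53. Of the 5 lower, nSyb oligonucleotide 1000042085, Syt1, brp and Snap25 were detected on 0 vessel arrays. They were tested only through their larva signal, so the filter itself favoured a lower ratio. Of the 19, 15 were detected on no vessel array and 11 on no larva array. Their summed signal was 35.8 to 60.2 RFU in the vessel and 56.0 to 67.5 RFU in the larva. Cardiac marker genes were mixed, with 6 of 12 tested oligonucleotides higher and 2 lower (5 and 2 with the 4 arrays alone). Among all tested, 18.3% were higher and 23.8% lower. The highest cardiac ratios were those of Hand (5.59) and H15 (3.45). Of the 6 higher, mid and loh were detected on 0 larva arrays and tin on 1, so they were tested only through the vessel. The 2 lower were of svp (-2.18) and Ork1 (-0.45, detected on 0 vessel arrays). The summed signal of the cardiac list was 544 to 925 RFU in the vessel and 87.7 to 143 RFU in the larva. Between heart and aorta hemocyte genes differed, with 6 of 7 tested oligonucleotides higher in the heart (2 with the 4 arrays fitted alone). Of the 6, NimC1 was detected on 0 aorta arrays and was tested only through the heart. Of 15 muscle oligonucleotides, 3 were higher there (0 with the 4 arrays alone). Among all tested, 4.13% were higher in the heart. The 3 muscle oligonucleotides include Zasp66 1000040872, in the block of 656 spots that followed poorly in replicate 3 of this comparison. The midgut list had median log2 ratios of 3.89, 1.01, -4.56 and -3.29 in replicates 1 to 4 of heart over aorta, and its summed signal ranged from 27.8 to 1712 RFU in the heart and from 49.9 to 1544 RFU in the aorta. The part of these tissues in the heart and aorta ratios of the calcium genes was not tested.

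The genes around the cycle were read from a list of 54 store, buffer, sensor and signalling genes. Of these, 50 were on the array with 60 oligonucleotides. In vessel over larva 40 oligonucleotides were tested, and 11 were higher, 12 lower and 17 not past the test, beside the 18.3% higher and 23.8% lower among all tested. With the 4 arrays alone the counts were 11 and 9. The median log2 ratio was 0.01. Of the 12 lower, CanB, Frq1, Nckx30C and Strn-Mlck oligonucleotide 1000034580 were detected on 0 vessel arrays, so they were tested only through the larva. TpnC47D, among the 11 higher, was detected on 1 larva array and was tested only through the vessel.

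Among proteins of the calcium store, jp, the fly junctophilin, which ties the surface membrane to the store in muscle, had log2 ratios of 1.29, 1.78, 1.70 and 0.39, with a fitted value of 1.29 (2.45-fold, SE 0.24, limma adjusted p = 0.00817). It was singled out after its values were seen, since it had the highest ratio of the list, and it did not pass without replicate 2 (log2 1.17, limma adjusted p = 0.0573). Fkbp12, whose mammalian counterpart binds the ryanodine receptor, was 1.56-fold higher (log2 0.64, SE 0.11, limma adjusted p = 0.00556). That call was lost when the channels were treated as unpaired, with a limma adjusted p of 0.0692. EMRE, a subunit of the mitochondrial calcium uniporter, was 2.15-fold higher (log2 1.11, SE 0.09), with array values of 1.23, 1.23, 0.93 and 1.03. Both oligonucleotides of SK, the small-conductance calcium-activated potassium channel, were higher, 1000039495 by 2.01-fold (log2 1.01, SE 0.14, limma adjusted p = 0.00260) and 1000037413 by 1.93-fold (log2 0.95, SE 0.23, limma adjusted p = 0.0205).

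CaMKI, calcium/calmodulin-dependent kinase I, was 4.77-fold lower (log2 -2.25, SE 0.18). CanA1, a catalytic subunit of the phosphatase calcineurin, was 2.70-fold lower (log2 -1.43, SE 0.16). CanB, a regulatory subunit of calcineurin, and Frq1, a neuronal calcium sensor of the frequenin family, were detected on 0 vessel and 4 larva arrays. Their fitted log2 ratios of -1.95 (SE 0.20) and -1.53 (SE 0.12) rest on vessel spots not above the detection level, and no fold is given. In the other comparison CanB was detected on 3 heart arrays and 1 aorta array, and Frq1 on 3 heart and 2 aorta arrays. Of the other calcineurin genes, the regulatory subunit CanB2 was 1.48-fold higher in the vessel (log2 0.57, SE 0.15, adjusted p = 0.0239 in limma), and the catalytic subunits Pp2B-14D (0.06) and CanA-14F (0.04) did not pass; these 3 lie outside the naming rule and were added after their values were seen. Orai, the store-operated channel of the surface membrane, was 1.97-fold lower with oligonucleotide 1000042637 (log2 -0.98, SE 0.12), and oligonucleotide 1000042636 gave -0.62 and did not pass (limma adjusted p = 0.0902). Stim, its activator in the store membrane, had a log2 ratio of -0.02. The largest ratios that did not pass, beside Orai, were those of Galphaq oligonucleotide 1000044297 (-0.96), a G protein subunit, TpnC25D (0.73), a troponin C, and CaMKII (0.36).

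Between heart and aorta 37 oligonucleotides of the list were tested, and 4 were higher in the heart, 2 lower and 31 not past the test, beside 4.13% higher and 4.30% lower among all tested. The median log2 ratio was 0.18. With the 4 arrays alone 0 passed in limma, and 15 had an unadjusted p below 0.05, beside 1513 of all 5910 tested. CanA1 was 1.88-fold higher in the heart (log2 0.91, SE 0.16, adjusted p = 0.0281 in limma). Regucalcin, named for a calcium-binding protein of mammals, was 1.75-fold higher (log2 0.81, SE 0.13, adjusted p = 0.0253 in limma). Its ratios were 0.23 and 0.18 in replicates 1 and 2 but 1.68 and 1.14 in replicates 3 and 4, with the dyes exchanged. CaMKII, calcium/calmodulin-dependent kinase II, was 1.57-fold higher (log2 0.65, SE 0.13) and Stim 1.40-fold higher (log2 0.48, SE 0.09), with adjusted p of 0.0372 and 0.0346 in limma. Of 16 alternative settings each, the call was lost under 8 for CanA1, 10 for regucalcin, 11 for CaMKII and 10 for Stim.

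The 2 genes lower in the heart were SPoCk, a secretory pathway calcium pump, and SK. SPoCk was 1.66-fold lower (log2 -0.73, SE 0.08, adjusted p = 0.0113 in limma), with ratios of -0.48, -0.33, -1.14 and -0.98. SK oligonucleotide 1000039495 was 1.70-fold lower (log2 -0.76, SE 0.14, adjusted p = 0.0293 in limma), with 0.00 in replicate 2. Of 16 alternative settings each, the call was lost under 6 for SPoCk and 10 for this SK oligonucleotide. Not past the test were jp (0.94, adjusted p = 0.0604 in limma), positive on 4 of 4 arrays, SK oligonucleotide 1000037413 (-0.75), slo (0.61), a large-conductance potassium channel, and Orai oligonucleotide 1000042636 (0.59). CanA1 had a positive ratio of heart over aorta and a negative one of vessel over larva, and the SK oligonucleotide 1000039495 the reverse.

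**Figure D4:**
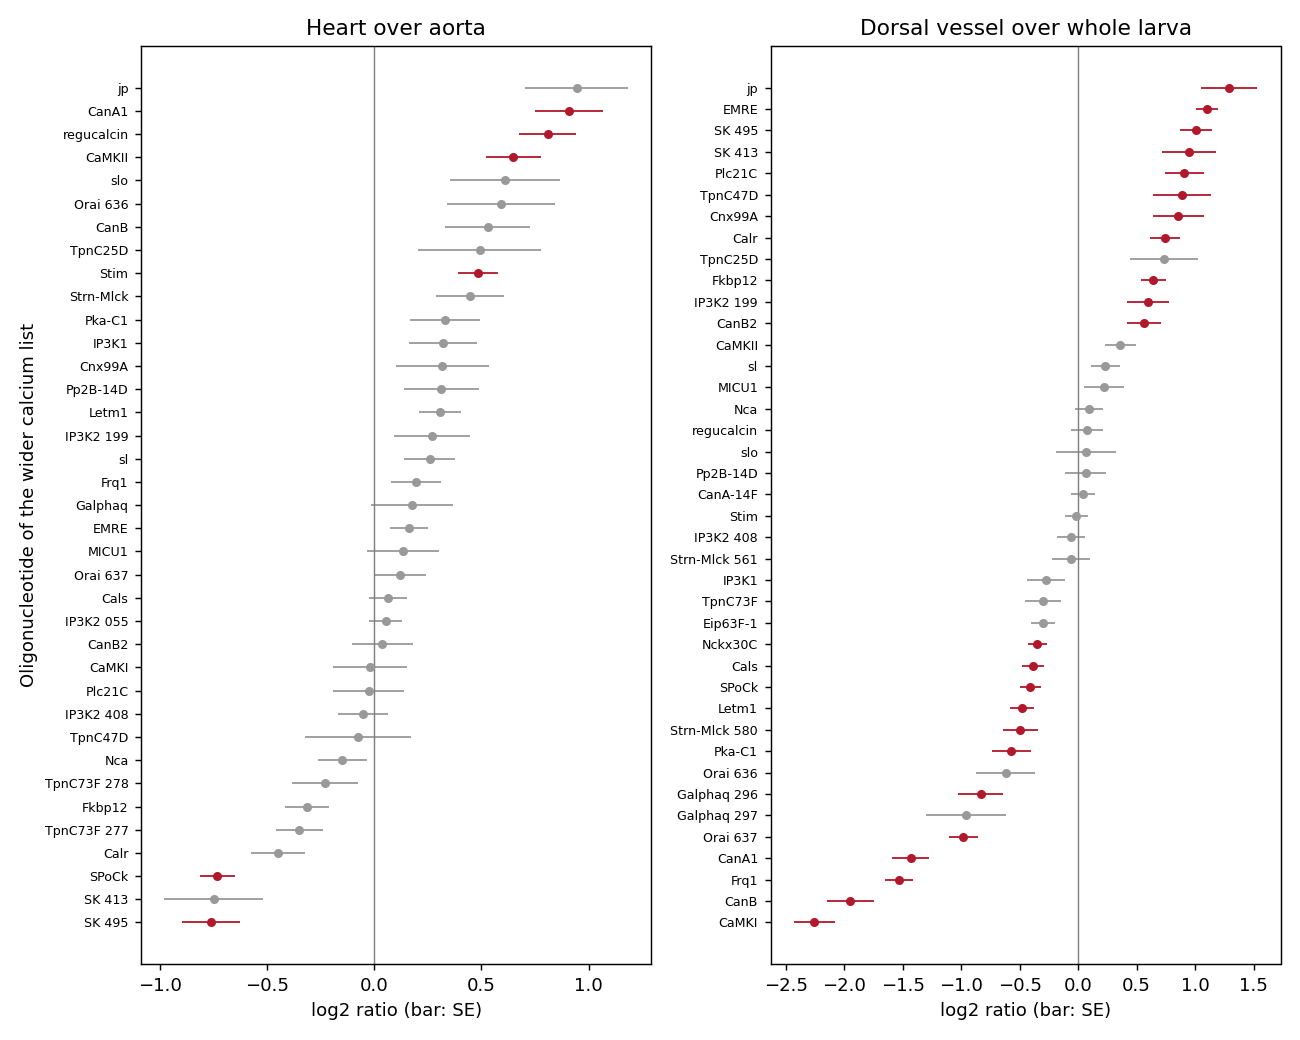
Log2 ratios with SE of the tested oligonucleotides of the wider calcium list, 37 for heart over aorta and 40 for dorsal vessel over whole larva, each panel sorted by its own values and red where the limma adjusted p was below 0.05. Of the red points, 4 are above 0 and 2 below at the left, and 11 above and 12 below at the right.

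By root mean square distance over the log2 ratios of all 8 arrays, among 5175 oligonucleotides tested in both comparisons, the genes whose pattern lay nearest to RyR were CG12065 (0.27), FipoQ (0.29) and Flo2 (0.30). Their ratios in vessel over larva were 1.26, 0.99 and 1.00. Nearest to the common SERCA oligonucleotide were HUWE1 (0.11), mbl (0.13) and RhoGAP19D (0.15). The ratios of these 3 in vessel over larva were -0.40, -0.43 and -0.28. The distances are a description over 8 arrays that share slides and dyes.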

How the data were processed

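The spot intensities are foreground and local background RFU in both channels, with bad spots marked, per the file headers. The value table of log2 ratios, as deposited, was normalised by the authors. It gives aorta over heart and vessel over larva, its medians lie at -0.0175 to 0.0054, and it correlated at 0.923 to 0.989 with the raw ratios turned to the same direction; limma is listed per the submitters' processing notes, whose version is not given in the sources used here. RFU were scaled by 36.9 before normexp correction with an offset of 50 (1.35 RFU), because the plan for the offset was made without the unit, and loess (span 0.3, 4 iterations) with control and bad spots at weight 0. Each oligonucleotide had 1 spot. limma 3.58.1 in R 4.3.3 was fitted over all 8 arrays with a dye coefficient for each comparison, and p-values received Benjamini-Hochberg adjustment over every tested oligonucleotide. On simulated arrays of 5910 and 6784 oligonucleotides, changes of 2-fold were found in 94 and 72% of cases, and unchanged oligonucleotides made up 11.4 and 9.68% of calls, above the 5% intended, against 2.45 and 5.33% with 4 arrays fitted alone, so that fit is given beside calls. The simulated noise was independent between arrays and oligonucleotides, so these shares need not hold for the real arrays. For heart over aorta with 4 arrays alone, the simulation called 163 oligonucleotides and the data 8.

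The members and lists were chosen with earlier results of these data known. Of the wider list, up to 8 oligonucleotides past the test by adjusted p and 4 of the largest ratios not past it were named per comparison. No fold is given where an RNA was above detection on 0 arrays. Names come from the files and RefSeq (Release 6 plus ISO1 MT, used for names only). Oligonucleotide sequences were not used here. The number of arrays limits the precision.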

Additional observations from a re-analysis of the deposited data

Results flagged for a closer look

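Of 35 sets of 4 ratios examined, 2 held an array far from the other 3, where chance gives about 1 in 20. For Ca-alpha1D in vessel over larva it was replicate 4, whose log2 ratio was -0.0385 while the others lay at 0.54 to 0.60. For SK oligonucleotide 1000037413 in heart over aorta it was replicate 2, at 0.0266 while the others lay at -1.02 to -0.98. The cause of either was not tested.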

How the results depend on the processing

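Of 190 recomputed values of the member oligonucleotides, 174 kept direction and side of the threshold, 5 newly passed, 0 lost a call and 11 changed sign, none of them past the test. For heart over aorta, RyR became 0.31 with median centring, 0.11 with the authors' deposited table and 0.24 and 0.02 without replicates 1 and 4 (-0.28 to 0.24 over all 4). The common SERCA oligonucleotide became -0.07 and -0.11 without replicates 2 and 3, and Ca-alpha1D -0.0202 without replicate 2, up to 0.36 without replicate 1. For vessel over larva, SERCA oligonucleotide 1000040008 became 0.0446 with an offset of 50 RFU, 0.0026 with median centring and 0.14 without replicate 4 (from -0.37), and Cam -0.30 without replicate 4 (up to 0.64). Of 363 values of the named oligonucleotides of the wider list, 298 kept both, 57 lost a call, 8 newly passed and 0 changed sign.

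The 498 calls between heart and aorta became 124 with median centring, 155 with 1 dye coefficient, 8 and 11 with the 4 arrays alone with and without a dye term, 210 with no filter, and 41 to 162 with 1 replicate left out. Arrays pair the samples by design, and with no replicate block, the channels being unpaired, 146 were called. The 2858 calls between vessel and larva became 1382 to 2427 with 1 replicate left out. The share called higher was 49.0% for heart over aorta, and 28.5% with an offset of 50 RFU, 83.9% with median centring, 71.0% with 1 dye coefficient, 75% and 81.8% with the 4 arrays alone and 63.0% unpaired. For vessel over larva it was 43.5%, and 55.2% with an offset of 50 RFU. Median centring moved the median of all heart over aorta ratios to 0.16. The median of vessel over larva was -0.17 without background subtraction and -0.15 in the authors' deposited table. Leaving out the block of 656 spots, an alternative added after the data were seen, changed no sign or call of a member. The low signals over background limit the 7 undetected oligonucleotides.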
